A study of Mus musculus with 2 samples.

Results

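The genes followed here mark or specify lung epithelium. They are the transcription factor genes Nkx2-1, Foxa1, Foxa2, Gata6, Sox2 and Sox9 and the marker genes Aqp5 and Lyz2, in a mouse lung carcinoma line with and without a compound that the labels call PKCi. They were picked by symbol from a table of 54532 genes, and all 8 were found. The untreated library (CON) came from CMT167R cells, described by the labels as resistant to anti-PD1. The other library (PKCi) came from the same line after 24 h with PKCi at 50 nM. Which compound this is, how resistance was obtained and whether the line is 1 clone is not stated in the labels, and no transgene or other allele is named for either group. With 1 library in each group there was no replicate spread to test against. Every interval below is therefore a 95% counting interval that compares these 2 libraries only, and no p-value was computed.

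NKX2-1 is the homeobox factor that sets up lung identity in the embryonic foregut and keeps alveolar genes, such as those of the surfactant proteins, active in the adult. FOXA1 and FOXA2 are forkhead factors that open chromatin and act beside NKX2-1, and GATA6 is a zinc finger factor of endoderm and of alveolar maturation. In the growing lung SOX2 marks the proximal cells that form conducting airways and SOX9 the distal tips that form alveoli. AQP5 is a water channel of alveolar type 1 cells and of airway glands, and LYZ2 is a lysozyme made in mice by alveolar type 2 cells and by myeloid cells.

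Of the 8 genes, 6 were present in both libraries and Nkx2-1 and Gata6 were listed at 0 counts in both. Foxa1 was 4.11-fold higher and Sox9 1.91-fold higher in the PKCi library, while Lyz2 was 2.66-fold lower, Sox2 2.05-fold lower, Aqp5 1.90-fold lower and Foxa2 1.29-fold lower. The 6 genes reached 1 CPM (counts per 1000000, that is counts scaled to the library total) in each library on its own. On the log2(CPM + 1) scale, which shrinks the ratios of low genes, 1 of the 6, Foxa1, was at least 2-fold higher, where 6.53% of all 12273 measured genes were. Lyz2 was the 1 gene at least 2-fold lower, where 5.13% of all measured genes were. Sox2 with a log2 ratio of −0.98, Sox9 with 0.93 and Aqp5 with −0.92 lay just under that size. These shares of 6 genes are too coarse to set the group apart from all genes.

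The 250 bases before the RefSeq transcription start are shown for Foxa1, the gene with the highest ratio, and for its relative Foxa2. They are also shown for Sox2, Aqp5 and Lyz2, each of which was lower with PKCi, as Foxa2 was. The windows are from RefSeq (GRCm38.p6) and run 5′ to 3′ on the strand of the gene. RefSeq starts are not always those of the gene positions given below. By those positions the Foxa1 window lies inside the gene, and the Aqp5 window almost wholly so. The Lyz2 window overlaps its gene, the Sox2 window ends some way before its gene, and the Foxa2 window ends where its gene begins. Capitals mark every match, on either strand, to 7 short motifs: TGTTTAC of forkhead factors, CAAGTG of NKX2-1, AGATAA of GATA factors, ACAAAG and ACAATG of SOX factors, GGAATG of TEAD factors and TGACTCA of AP-1.
Foxa1, chr12:57546112-57546361 on the minus strand: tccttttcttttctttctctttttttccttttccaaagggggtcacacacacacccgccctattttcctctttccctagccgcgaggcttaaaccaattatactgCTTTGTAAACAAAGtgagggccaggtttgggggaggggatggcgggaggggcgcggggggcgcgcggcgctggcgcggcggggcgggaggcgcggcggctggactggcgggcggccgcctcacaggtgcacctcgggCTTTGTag
Foxa2, chr2:148046970-148047219 on the minus strand: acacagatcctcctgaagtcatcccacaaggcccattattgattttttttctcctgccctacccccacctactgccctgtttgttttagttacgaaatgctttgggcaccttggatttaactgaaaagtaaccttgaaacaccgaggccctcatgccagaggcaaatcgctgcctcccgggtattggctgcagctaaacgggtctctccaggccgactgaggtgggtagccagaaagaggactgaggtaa
Sox2, chr3:34649745-34649994 on the plus strand: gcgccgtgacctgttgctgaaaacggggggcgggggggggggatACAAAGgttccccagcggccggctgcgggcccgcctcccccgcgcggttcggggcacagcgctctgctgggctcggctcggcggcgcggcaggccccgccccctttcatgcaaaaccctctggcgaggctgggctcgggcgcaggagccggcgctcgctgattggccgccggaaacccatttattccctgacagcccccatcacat
Aqp5, chr15:99590778-99591027 on the plus strand: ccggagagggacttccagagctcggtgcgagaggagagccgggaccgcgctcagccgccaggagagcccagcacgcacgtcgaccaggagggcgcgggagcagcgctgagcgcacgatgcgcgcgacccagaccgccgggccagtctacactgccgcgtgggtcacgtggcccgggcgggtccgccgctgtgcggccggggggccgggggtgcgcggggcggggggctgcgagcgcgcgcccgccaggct
Lyz2, chr10:117282273-117282522 on the minus strand: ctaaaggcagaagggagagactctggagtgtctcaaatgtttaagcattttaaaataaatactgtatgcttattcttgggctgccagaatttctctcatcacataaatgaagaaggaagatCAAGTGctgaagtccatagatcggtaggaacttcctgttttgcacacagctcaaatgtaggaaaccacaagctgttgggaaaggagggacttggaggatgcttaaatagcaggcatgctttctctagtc

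In the Foxa1 window a forkhead match (TGTTTAC, read on the opposite strand) began 141 bases before the RefSeq start. It overlapped an ACAAAG match on either side, and a further ACAAAG match lay 8 bases before that start. A TGTTTAC match stood in 3.17% of all 32851 such windows in the RefSeq table and an ACAAAG match in 16.5%. The Lyz2 window held 1 CAAGTG match, 129 bases before the start, as did 11.6% of all windows. The Sox2 window held 1 ACAAAG match, 206 bases before the start. The Aqp5 window and the Foxa2 window shown held no match to any of the 7 motifs. Aqp5 had the window richest in G and C, with 78.4% against a median of 52.4% over all windows, and Lyz2 had 41.6%. Foxa2 has 2 further annotated starts, the most downstream of which had 1 AGATAA and 1 ACAAAG match. A match is only a run of letters, and these libraries did not measure binding.

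Gene counts summed to 16090186 untreated and to 16071153 with PKCi, so that 1 CPM stood for 16.1 counts in each. For 0 counts, read as a true count, the floor of 3 counts stood for 0.186 CPM untreated and 0.187 CPM with PKCi, and the upper end of the 95% Poisson interval was 0.229 and 0.230 CPM. The labels mention no molecular identifiers on the reads, so intervals and floors cover counting error only. In bulk RNA, fewer cells that express a gene and less of its RNA in each cell cannot be told apart. One protocol text in the labels speaks of retinas. Of 8 retina markers 6 were at 0 counts in both libraries, beside 33633 of all 54532 genes. All 8 together had 3 counts untreated and 1 with PKCi, and the source of the RNA was not tested.

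Nkx2-1 (ENSMUSG00000001496, chromosome 12 from 56531958 to 56536908, minus strand, GRCm38) had 0 counts in either library. Its overlapping antisense gene Gm26973 and its neighbour Sfta3-ps were at 0 as well. Gata6 (ENSMUSG00000005836, chromosome 18 from 11052508 to 11085635, plus strand) also had 0 counts in either library, and so had 1010001N08Rik, which overlaps its first bases on the opposite strand. Neither gene has a fold. The 0 of Gata6 carries a limit of the table itself. Its rows run roughly from abundant to rare genes, and Gata6 stands in row 10795, where the median summed count of the rows within 100 places was 135. Of the first 12273 rows 352 were at 0 in both libraries, among them Ckap4 and Decr1, genes used by most cells and named here after their values were seen. Nkx2-1 stands in row 48776, where all 201 rows of that window were at 0. Whether a listed 0 is a true absence was not tested.

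**Figure D1:**
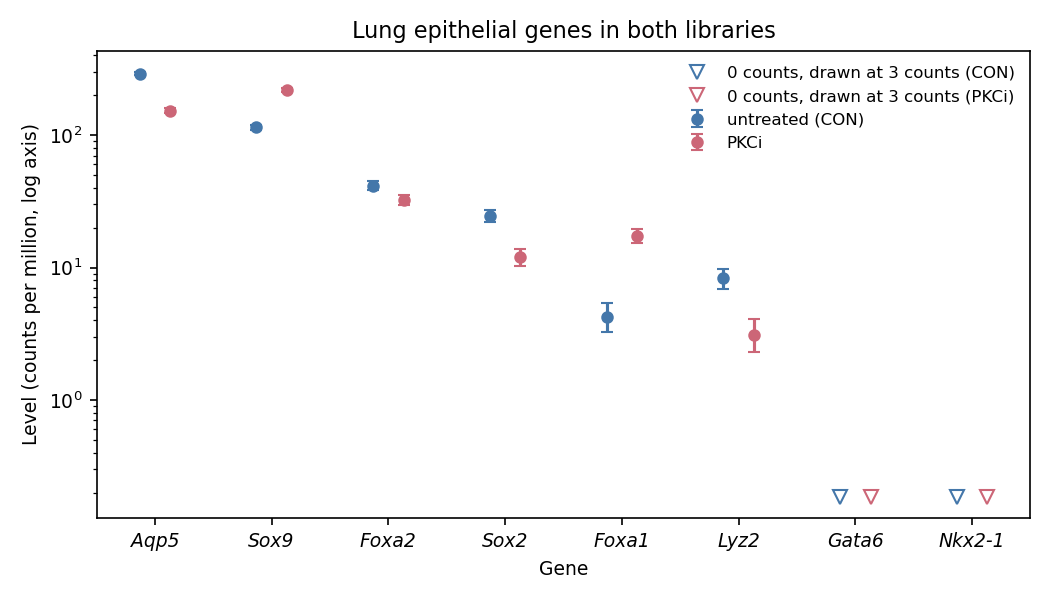
Level of each of the 8 genes in the untreated library (blue) and the PKCi library (red), in CPM on a log axis, with 95% Poisson counting intervals as bars. Open triangles stand for 0 counts and are drawn at the floor of 3 counts. Foxa1 and Sox9 were higher with PKCi, Aqp5, Foxa2, Sox2 and Lyz2 lower, and Gata6 and Nkx2-1 were at 0 in both.

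Foxa1 (ENSMUSG00000035451, chromosome 12 from 57540628 to 57546916, minus strand) had 68 counts untreated and 279 with PKCi, a level of 4.23 and 17.4 CPM. The ratio was 4.11 (95% interval 3.14 to 5.44) and the log2 ratio 1.81. It ranked 158th from the top of 12273 measured genes and 9th of the 822 measured genes to which the table gives a transcription factor family. Of these 822 genes 9.37% were higher and 2.68% lower by at least 2-fold, and their median log2 ratio was 0.24, against −0.01 over all measured genes. Log2 ratios were above 0 for 527 and below 0 for 295 of the 822, and above 0 for 6040 and below for 6233 of all 12273. Ttc6, which lies 17196 bases from Foxa1 on the other strand, had 2 counts untreated and 18 with PKCi (ratio 9.01, 95% interval 2.16 to 80.1).

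Foxa2 (ENSMUSG00000037025, chromosome 2 from 148042877 to 148046969, minus strand) was the more abundant of the pair in both libraries. It had 668 counts untreated and 517 with PKCi, a level of 41.5 and 32.2 CPM, 1.29-fold lower with PKCi (95% interval 1.15 to 1.45). Its log2 ratio of −0.36 lay inside the range between the quartiles of all measured genes, −0.41 and 0.39. The 3 genes within 30000 bases of Foxa2 were at 0 counts in both libraries.

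The make-up of the FOXA message therefore differed more than its amount. Summed over Foxa1 and Foxa2 there were 736 counts untreated and 796 with PKCi, a ratio of 1.08 whose 95% interval, 0.978 to 1.20, includes no difference. Foxa1 took 9.24% of these counts untreated (95% Clopper-Pearson interval 7.25 to 11.6) and 35.1% with PKCi (31.7 to 38.5). Per length, in counts per base of gene length scaled to 1000000 (TPM), the sum was 61.0 and 61.4, and the level of Foxa2 was 13.8 times that of Foxa1 untreated and 2.60 times with PKCi. Foxa3, the remaining FOXA gene, was listed at 0 in both libraries.

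**Figure D2:**
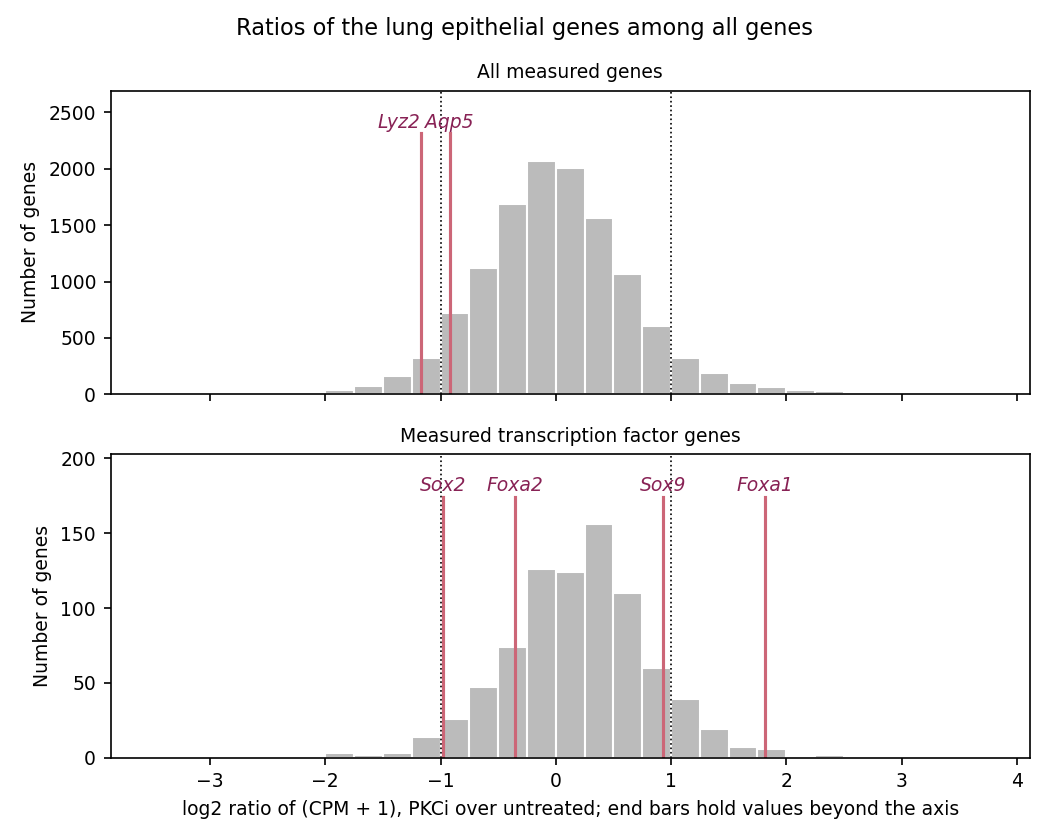
Histograms of the log2 ratio of (CPM + 1), PKCi over untreated, for all 12273 measured genes (top) and for the 822 with a transcription factor family (bottom). Red lines mark the lung epithelial genes and dotted lines the 2-fold size. Foxa1 at 1.81 lies in the upper tail of the transcription factors, Lyz2 at −1.17 lies beyond 2-fold, and Sox2, Sox9 and Aqp5 lie just inside it.

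Sox9 (ENSMUSG00000000567, chromosome 11 from 112782224 to 112787760, plus strand) had 1836 counts untreated and 3509 with PKCi, a level of 114 and 218 CPM (1.91-fold higher, 95% interval 1.81 to 2.03). Sox2 (ENSMUSG00000074637, chromosome 3 from 34650405 to 34652461, plus strand) had 394 and 192 counts, a level of 24.5 and 11.9 CPM (2.05-fold lower with PKCi, 95% interval 1.72 to 2.45). Sox9 and Sox2 thus differed in opposite directions. Distal tip genes did not all go with Sox9, since Id2 and Bmp4, given below, were lower with PKCi. A shift between proximal and distal identity was not tested. Per length Sox9 stood at 2.32 times the level of Sox2 untreated and at 9.09 times with PKCi. Sox2 is a gene with 1 exon that lies inside the span of the noncoding gene Sox2ot on the same strand. Sox2ot had 3 and 4 counts. BC006965, which ends 247 bases from Sox9 on the opposite strand, had 3 counts untreated and 9 with PKCi (ratio 3.004, 95% interval 0.750 to 17.2), a difference not detectable at this depth.

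Of the 19 SOX genes looked up, 5 were measured and 12 were at 0 in both libraries. Among those at 0, Sox12 (row 8859) and Sox11 (row 9161) stand near Sox2 (row 8576), so their 0 carries the limit given for Gata6. On the log2(CPM + 1) scale Sox4, a factor of many progenitor and tumour cells, was the 1 SOX gene at least 2-fold higher. On that scale 0 were lower, with Sox2 at −0.98 just under that size, though its plain fold was 2.05. Of the 822 factors 9.37% were higher and 2.68% lower by that size. Sox4 had 713 counts untreated and 3913 with PKCi (5.49-fold, 95% interval 5.07 to 5.96) and ranked 4th of the 822. Sox21, which in airways is expressed beside Sox2, had 304 and 355 counts (1.17-fold higher, 95% interval 1.00 to 1.37). Sox5 had 33 and 20 counts (1.65-fold lower, 95% interval 0.918 to 3.03). Among the 6 GATA genes, Gata4, a factor of heart and gut endoderm, had 203 and 155 counts (1.31-fold lower, 95% interval 1.06 to 1.62). Gata3 had 86 and 72 counts, with an interval from 1.66-fold lower to 1.16-fold higher, and the rest of the GATA genes were under 1 CPM.

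**Figure D3:**
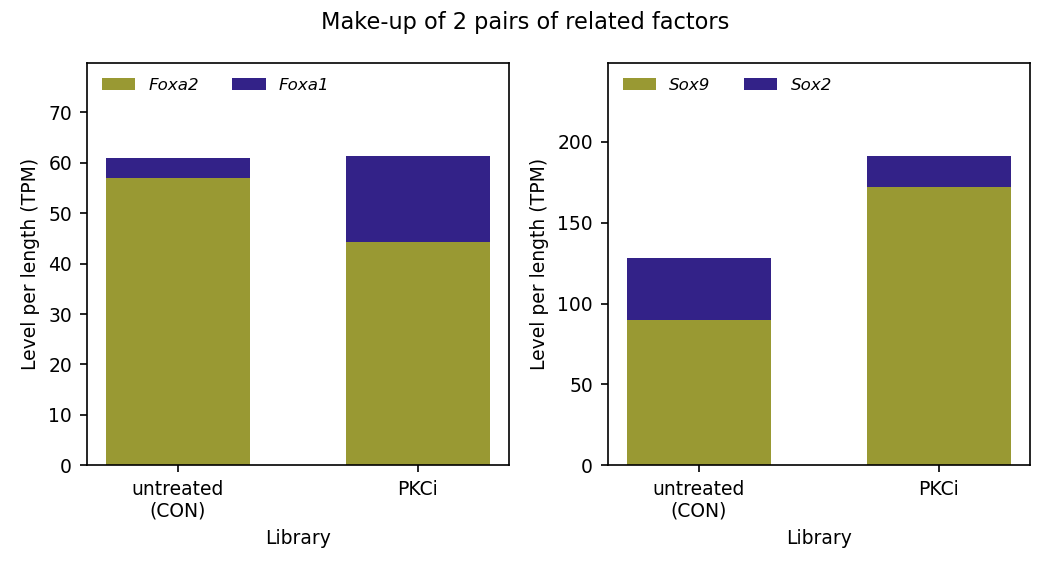
Level per gene length (TPM) of Foxa1 and Foxa2 (left) and of Sox2 and Sox9 (right) in each library, as stacked bars from 0. The FOXA bars reach 61.0 and 61.4 TPM with a larger Foxa1 part under PKCi, and the Sox9 part grows while the Sox2 part shrinks.

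Aqp5 (ENSMUSG00000044217, chromosome 15 from 99590782 to 99594829, plus strand) was the most abundant of the 8 genes per length in both libraries. It had 4678 counts untreated and 2459 with PKCi, a level of 291 and 153 CPM (1.90-fold lower with PKCi, 95% interval 1.81 to 1.996). Untreated, its TPM lay above that of 96.7% of the measured genes. The aquaporin genes on either side, Aqp2 and Aqp6, had 14 and 4 counts untreated and 8 and 2 with PKCi. Aqp1, a water channel of endothelium and other cells, had 398 and 346 counts, with an interval from 1.33-fold lower to 1.01-fold higher. Aqp11 had 33 and 32 counts.

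Lyz2 (ENSMUSG00000069516, chromosome 10 from 117277331 to 117282321, minus strand) had 133 counts untreated and 50 with PKCi, a level of 8.27 and 3.11 CPM. It was 2.66-fold lower with PKCi (95% interval 1.91 to 3.76), with a log2 ratio of −1.17, and ranked 381st from the bottom of 12273 genes. Lyz1, the neighbouring lysozyme gene, had 1 count untreated and 0 with PKCi. The transcripts of Lyz1 and Lyz2 share 96.0% of 1262 aligned bases, so some reads could fit both genes. How such reads were counted or dropped is not stated, so the value of each gene is uncertain. Since Lyz2 is also a myeloid gene, markers of macrophages and other leukocytes were read beside it. Of 24 such markers 17 were at 0 in both libraries, beside 33633 of all 54532 genes. The pan-leukocyte gene Ptprc and the macrophage gene Adgre1 were among the 17. Which cells made the Lyz2 message was not tested. The 24 summed to 63.1 CPM untreated and 124 CPM with PKCi. Most of the sum was Cd14, a coreceptor of bacterial lipopolysaccharide, with 915 and 1621 counts, and Mrc1, a mannose receptor, had 55 and 302 counts. Cd68 had 38 and 57 counts, with an interval from 1.02-fold lower to 2.33-fold higher.

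Ordered by TPM, the untreated library ran from Aqp5 (363) through Sox9 (89.6), Foxa2 (56.9), Sox2 (38.7) and Lyz2 (20.4) to Foxa1 (4.13), and no 2 neighbours in this order had overlapping counting intervals. With PKCi the order was Aqp5 (192), Sox9 (172), Foxa2 (44.3), Sox2 (19.0), Foxa1 (17.0) and Lyz2 (7.72), and the intervals of Sox2 and Foxa1 overlapped. Foxa1 and Lyz2 thus changed places, and Sox9 came close to Aqp5.

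The surroundings of these genes in the line were read from marker lists. The line held simple epithelial keratins at high levels, with Krt8 at 1548 and 1971 TPM and Krt18 at 1452 and 1738 TPM, and the mesenchymal intermediate filament gene Vim at 1822 and 1916 TPM. The epithelial adhesion gene Epcam had 56 and 101 counts (1.81-fold higher with PKCi, 95% interval 1.29 to 2.55), and Cdh1, E-cadherin, named after its values were seen, had 47 and 54. The desmosome gene Dsp had 4 and 24 counts (ratio 6.01, 95% interval 2.06 to 23.8) and a log2 ratio of 0.998 on the log2(CPM + 1) scale, just short of 2-fold. Of 13 measured general epithelial markers 0 were past 2-fold on that scale in either direction, where 6.53% of all measured genes were past it upward and 5.13% downward, with a median log2 ratio of 0.16. At a pseudocount of 0.1 CPM 1 was higher, beside 1181 of all 12273 measured genes. Of 12 measured mesenchymal markers 1 was at least 2-fold higher, the matrix gene Fn1 (2.82-fold), and 2 were lower, Acta2 with 59 and 4 counts and the growth factor receptor gene Pdgfrb with 1422 and 392. The median was 0.39. Of all measured genes 6.53% were past 2-fold higher and 5.13% past 2-fold lower. At a pseudocount of 0.1 CPM 3 of the mesenchymal markers were higher and 3 lower, beside 1181 and 888 of all measured genes.

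Markers of mature lung cells were mostly at or near 0. The surfactant genes Sftpa1, Sftpb, Sftpc and Sftpd and the club cell genes Scgb1a1 and Scgb3a2 were listed at 0 in both libraries. The defining lung markers, Nkx2-1 and the surfactant genes, were thus not detected in a line known as a lung carcinoma. Apart from Lyz2, 7 of 20 alveolar type 2 markers were measured, with a median of −0.17. At least 2-fold higher or lower were 0 of them, beside 6.53% and 5.13% of all measured genes. Abca3, the lipid transporter of lamellar bodies, was at 48.4 and 87.9 CPM (1.82-fold higher, 95% interval 1.66 to 1.99), and the alarmin gene Il33 at 216 and 121 CPM (1.78-fold lower, 95% interval 1.68 to 1.88). Of 13 club cell markers 3 were measured. The carbonyl reductase gene Cbr2 had 175 and 55 counts (3.18-fold lower, 95% interval 2.34 to 4.39) and Hp, haptoglobin, had 2 and 30 (ratio 15.0, 95% interval 3.81 to 130). Of the 9 goblet, 11 neuroendocrine and 7 endothelial markers 0 reached 1 CPM.

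Apart from Aqp5, 8 of 21 alveolar type 1 markers were measured. At least 2-fold, 1 was higher and 2 were lower, beside 6.53% and 5.13% of all measured genes, and the median was 0.36. The lower ones were the caveolar genes Cav1 (637 and 274 CPM, 2.33-fold, 95% interval 2.25 to 2.41) and Cav2 (2.46-fold, 95% interval 2.34 to 2.60), and the higher one was Vegfa, a growth factor of blood vessels that many cell types make (331 and 1518 CPM, 4.58-fold, 95% interval 4.45 to 4.72). Pdpn, another type 1 marker, was listed at 0 in both, in row 4554, where the median summed count nearby was 1624. Markers of the transitional state between both alveolar types were present more fully, with 12 of 14 measured. Of these, 4 were higher and 0 lower by at least 2-fold, 11 had log2 ratios above 0, and the median was 0.57. Of all measured genes 6.53% were higher and 5.13% lower by that size, and 6040 of 12273 were above 0. The 4 higher transitional markers were the EGF receptor ligand gene Areg (3.36-fold) and the stress gene Nupr1 (2.86-fold), with Sfn, which encodes 14-3-3 sigma (2.87-fold), and the cell cycle inhibitor gene Cdkn1a (2.20-fold). This list shares Krt8 and Krt18 with the general epithelial list, and its other genes also respond to stress and growth signals in many cell types.

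The remaining airway lists were thinly filled. The basal cell factor gene Trp63 was at 364 counts in the untreated and 148 in the PKCi library (2.46-fold lower, 95% interval 2.02 to 2.99), and the basal keratin gene Krt14 had 52 and 107 (2.06-fold higher, 95% interval 1.47 to 2.93). Of 14 ciliated cell markers 5 were measured. At least 2-fold, 1 was higher and 0 were lower, beside 6.53% and 5.13% of all measured genes, and the median was 0.34. The higher one was Ccno, a gene of centriole amplification, with 51 and 174 counts (3.42-fold higher, 95% interval 2.49 to 4.76). For the rest of those measured, Rfx2, Rfx3, Ccdc39 and Cfap126, the intervals included no difference. Some genes of gut epithelium were present. Of 18 gastric and intestinal markers 6 were measured. At least 2-fold, 1 was higher and 0 were lower, beside 6.53% and 5.13% of all measured genes, and the median was −0.08. The intestinal factor gene Cdx2 was at 30.4 and 42.6 TPM, the pancreatic and duodenal factor gene Pdx1 at 49.1 and 25.5 TPM (1.93-fold lower in CPM, 95% interval 1.67 to 2.25), and the intestinal cadherin gene Cdh17 at 54.6 and 49.7 TPM. Onecut2, a factor of liver and gut, was the higher one, with 63 and 231 counts.

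**Figure D4:**
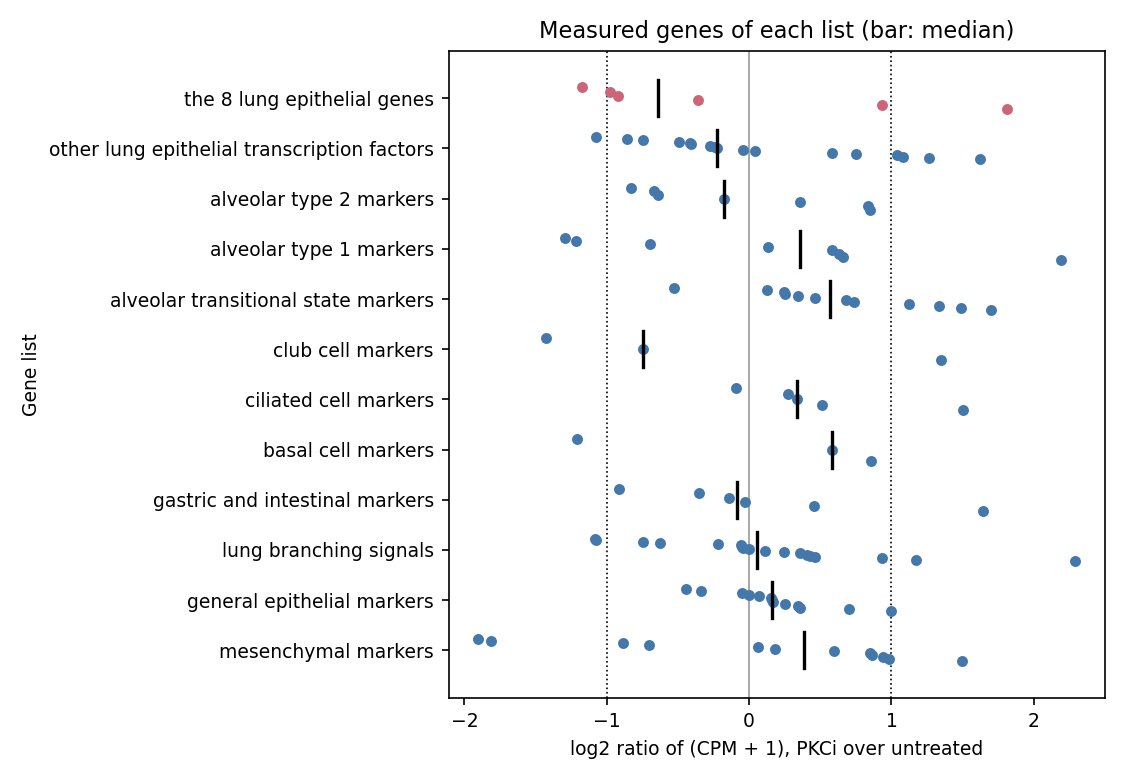
Log2 ratio of (CPM + 1), PKCi over untreated, of each measured gene of 12 lists (points) with the list's median (black bar); the 8 lung epithelial genes are left out of the other lists. Dotted lines mark the 2-fold size. The transitional state list lies mostly to the right of 0, and the lung epithelial genes spread from −1.17 to 1.81.

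Other factors of lung epithelium also differed in both directions. Of 32 listed, 17 were measured. At least 2-fold, 4 were higher and 1 was lower, 7 had log2 ratios above 0 and 10 below, and the median was −0.22. Of the 822 measured transcription factor genes 9.37% were higher and 2.68% lower, and 527 lay above 0. Cebpd, 1 of the 4 higher genes, has no transcription factor family assigned and is not among the 822. The higher ones were Cebpd (3.14-fold, 95% interval 2.86 to 3.44), Cebpb (2.40-fold, 95% interval 2.30 to 2.51), Stat3 (2.13-fold, 95% interval 1.99 to 2.27) and Klf5, a factor of epithelial progenitors named after its values were seen because it completes these 4 (806 and 1670 counts). CEBP factors are leucine zipper proteins of alveolar and inflammatory gene control. Id2, an inhibitor of helix-loop-helix factors that marks the distal tip beside Sox9, had 222 and 97 counts (2.29-fold lower, 95% interval 1.79 to 2.93). At a pseudocount of 5 CPM it was no longer past 2-fold, and 0 of the 17 were lower, beside 324 of all measured genes. So Id2 and Sox9, both distal tip genes, differed in opposite directions.

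Of 18 measured genes of the signals that shape the branching lung, 2 were higher and 2 lower by at least 2-fold, beside 6.53% and 5.13% of all measured genes, and the median was 0.06. At a pseudocount of 5 CPM 1 was lower, beside 324 of all measured genes. Jag1, a Notch ligand, was 5.01-fold higher (30.6 and 153 CPM, 95% interval 4.55 to 5.53), and Dusp6, a phosphatase gene induced by ERK signalling, 2.26-fold higher (95% interval 2.15 to 2.38). Bmp4, a growth factor of the distal tip, was 2.14-fold lower (117 and 54.9 CPM, 95% interval 1.97 to 2.32), and Id2 was the other gene lower. Wnt7b, a ligand of lung epithelium, was at 287 and 277 CPM, with a 95% interval of 0.924 to 1.004 for the ratio. Of 10 cartilage genes that SOX9 is known to act on in other tissues 2 were measured. Sox5 is given above, and the collagen gene Col11a1 went from 145 to 40 counts (3.62-fold lower, 95% interval 2.54 to 5.28).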

How the data were processed

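Messenger RNA of 2 cultures was measured, 1 library per group. Per the submitters' processing notes the tool named is HISAT2 2.0.5 and the named builds are GRCm38 and mm10. The counting step, strand setting and annotation are not stated there or in the labels. The authors deposited whole-number counts per gene, with gene positions and lengths per the file headers; the name of the table mentions FPKM, yet every value is a whole number. Unassigned per-sample columns numbered 0. Each library was scaled to a total of 1000000 (CPM), or scaled after dividing by gene length (TPM). A gene counted as measured when it reached 1 CPM in either library. Log2 ratios are of CPM plus a pseudocount of 1, PKCi over CON. Folds in the text are plain CPM ratios with exact conditional binomial (Clopper-Pearson) 95% intervals. Levels have exact Poisson intervals. The procedure was tested on simulated Poisson counts with planted changes. These held counting error only, so spread between cultures was not tested. GENCODE M21 held 54409 of the identifiers, 98.3% of them at an unchanged position; Gata6 had a different start. RefSeq promoter windows were taken by symbol for 6 of the 8 genes. Windows of the 8 genes on chromosome 18, where Gata6 lies, were left out beforehand, and none was found for Sox9.

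The 8 genes and the 23 other lists were chosen with earlier results of these data known. The text names the 8 genes, up to 4 genes per list with the largest absolute log2 ratio and up to 2 with the highest TPM, and family genes with at least 5 CPM; list genes at 0 could be named, and exceptions are stated. Alternatives used edgeR 4.0.16 for TMM factors, with Python 3.11.15 and scipy 1.17.1 for the rest.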

Additional observations from a re-analysis of the deposited data

How the results depend on the processing

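No paired analysis was possible because each group holds 1 library, and no library could be left out. Scaling by TMM factors, by median-of-ratios size factors, by TPM or without mitochondrially encoded genes, and pseudocounts of 0.1 and 5 CPM, kept the direction of all 6 measured lung epithelial genes. Their log2 ratios ranged from 1.28 to 2.01 for Foxa1, −1.38 to −0.71 for Lyz2, −1.03 to −0.80 for Sox2, −0.94 to −0.90 for Aqp5, −0.37 to −0.32 for Foxa2 and 0.91 to 0.94 for Sox9. With a pseudocount of 5 CPM, which by construction shrinks low genes, Foxa1 was at 1.28 and Lyz2 at −0.71, so Lyz2 was no longer 2-fold lower, and 449 of all measured genes were higher and 324 lower by at least 2-fold, against 802 and 630. With a pseudocount of 0.1 CPM Sox2 was also past 2-fold. With TPM, where 14174 genes passed 1 TPM, 1398 were at least 2-fold higher and 985 lower. The median log2 ratio of the alveolar type 1 list, Aqp5 included, changed from 0.13 to −0.19 with TPM and to −0.08 without a filter, and that of the SOX family from 0.21 to −0.08 without a filter. Counts of list genes past 2-fold also depended on the pseudocount. With 0.1 CPM, 2 of the lung epithelial genes and 1 SOX gene were lower, and 1 general epithelial and 3 mesenchymal markers were higher. At that setting 1181 of all 12273 measured genes were higher and 888 lower. With 5 CPM, 0 of the lung epithelial genes, of the other lung factors and of the type 2 markers were lower, 0 ciliated markers were higher, and 1 branching gene and 1 mesenchymal marker were lower. With TPM 2 type 2 markers were lower, and with a filter of 5 CPM 1 mesenchymal marker was. With that filter 543 of all 10271 measured genes were lower. No scaling moved the median of all genes by more than 0.1. Depth limits most the genes with few counts, such as Lyz2 and Dsp.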

Other observations

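Secreted defence proteins of the airway, the class to which Lyz2 belongs, differed in both directions. Slpi, an inhibitor of neutrophil elastase, had 2548 counts untreated and 9288 with PKCi (3.65-fold higher, 95% interval 3.49 to 3.81). Wfdc2, a related airway protein gene, had 6646 and 3399 counts (1.95-fold lower, 95% interval 1.87 to 2.04). Lcn2, a lipocalin that binds bacterial siderophores, had 90 and 162 counts (1.80-fold higher, 95% interval 1.38 to 2.36). Of the 12 listed genes 6 were at 0 in both libraries.

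Of the 23 genes within 30000 bases of the lung epithelial genes, 15 were at 0 counts in both libraries, beside 33633 of all 54532 genes. These neighbours were thus near the share of all genes. Racgap1, a cytokinesis gene 25666 bases from Aqp5 on the opposite strand, was the most abundant of them, with 7329 and 4159 counts (1.76-fold lower with PKCi, 95% interval 1.69 to 1.83, beside 1.90-fold for Aqp5). It was named after its values were seen.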
